A study of Homo sapiens with 20 samples.

Results

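The genes described here are 10 members of a growth factor signalling group: the receptors EGFR, ERBB2, ERBB3, MET and AXL, and the ligands AREG, EREG, HBEGF, TGFA and GAS6. They were taken by symbol from an expression table of 36076 genes, and all 10 were found. mRNA-seq had been performed in 6 human lines derived from lung cancer (PC9, A549, H1299, H1792, CL1-0 and CL1-5), each with 1 library of Mock-treated cells, which received PBS, and 1 library of cells given the DNA methyltransferase inhibitor decitabine (DAC) at 100 nM for 72 h, followed by 3 days without drug. Omni-ATAC-seq, which maps accessible chromatin by transposase insertion, covered A549, H1299, CL1-5 and PC9 in both treatments. All are established lines, PC9 is the EGFR-mutant one, and CL1-0 and CL1-5 are sublines of the same parental line; the transcript counts do not tell mutant from normal EGFR alleles.

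EGFR, ERBB2 and ERBB3 are receptor tyrosine kinases that signal as pairs. AREG, EREG, HBEGF and TGFA are made as membrane-bound precursors, are released by proteases and bind EGFR, and HBEGF and EREG also bind ERBB4. ERBB2 has no known direct ligand, and ERBB3, whose own kinase is weak, signals through its partners. MET is the receptor of hepatocyte growth factor, and AXL is a receptor tyrosine kinase of the TAM family that is bound by GAS6. Mutant EGFR drives a subset of lung adenocarcinomas, and MET and AXL are known as receptors that can carry signalling when EGFR is inhibited.

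The promoters below are shown because DAC acts through loss of methylation at CpG sites and because the ATAC data bear on these windows. Each line gives the 250 bases before a RefSeq transcript start, 5′ to 3′ on the gene's strand, with CG dinucleotides in capitals. The sequences come from RefSeq (GRCh38.p14), which held 9 of the 10 members; the positions are those of their exact matches in GRCh37, the build of the deposited peaks. They are chr7:55086460-55086709 for EGFR (plus strand), chr19:41724878-41725127 for AXL (plus strand), chr4:75230612-75230861 for EREG (plus strand) and chr5:139726189-139726438 for HBEGF (minus strand), and in each of these 4 windows no exon is annotated.
EGFR: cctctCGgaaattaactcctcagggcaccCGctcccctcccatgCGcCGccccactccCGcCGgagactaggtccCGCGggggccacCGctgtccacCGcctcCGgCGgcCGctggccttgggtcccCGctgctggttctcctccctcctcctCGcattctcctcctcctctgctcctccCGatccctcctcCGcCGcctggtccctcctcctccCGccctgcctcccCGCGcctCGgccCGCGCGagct
AXL: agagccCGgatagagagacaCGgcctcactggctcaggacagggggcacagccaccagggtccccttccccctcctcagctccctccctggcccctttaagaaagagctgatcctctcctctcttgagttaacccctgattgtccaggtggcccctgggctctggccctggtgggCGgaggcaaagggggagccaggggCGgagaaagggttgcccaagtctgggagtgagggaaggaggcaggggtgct
EREG: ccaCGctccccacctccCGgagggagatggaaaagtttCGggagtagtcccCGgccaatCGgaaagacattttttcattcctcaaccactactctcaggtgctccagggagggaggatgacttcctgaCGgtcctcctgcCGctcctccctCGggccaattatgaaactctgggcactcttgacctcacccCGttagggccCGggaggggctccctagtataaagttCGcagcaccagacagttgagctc
HBEGF: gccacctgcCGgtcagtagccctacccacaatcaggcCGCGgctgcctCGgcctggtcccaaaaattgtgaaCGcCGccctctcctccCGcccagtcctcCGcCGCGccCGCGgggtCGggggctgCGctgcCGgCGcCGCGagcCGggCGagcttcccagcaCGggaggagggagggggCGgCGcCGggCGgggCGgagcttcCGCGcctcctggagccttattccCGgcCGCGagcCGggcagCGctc
The HBEGF window held 33 CG dinucleotides, a number that 8.15% of 35116 RefSeq promoters reach or exceed. EGFR held 25 (reached by 21.6%), EREG 11 (reached by 50.3%, and the median of all promoters) and AXL 4 (reached by 70.7%). RefSeq holds another start for EGFR, whose window has 1 CG (reached by 93.9%), and for AXL, whose window has 13 (reached by 46.6%). DNA methylation itself is not analysed here.

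Between 22234485 and 25303899 reads fell on genes in the 10 libraries of the 5 lines other than H1299, and 52634234 and 59735913 in the H1299 libraries. In H1299, 81.9% to 85.5% of genes with 1 to 20 reads had an even number of reads (39.2% to 41.5% in the other libraries), so intervals for H1299 were computed on the reads divided by 2. Fewer genes had a value above 0 in H1299 (18404 in Mock and 20482 after DAC) than in the other libraries (23964 to 28232). In levels, the H1299 line thus cannot be told apart from these differences of its libraries. Intervals are exact 95% Poisson intervals for levels and exact conditional binomial ones for folds. With 1 library per line and treatment these intervals cover counting error only. The cell lines are the replicates of each test, with CL1-0 and CL1-5, sublines of the same parental line, counted as separate replicates. The lines were checked against epithelial markers: PC9 had 10 of 10 (among them CDH1, EPCAM and KRT8) at 1 FPKM (fragments per kilobase of transcript, scaled to the reads of the library) or more in Mock, H1792 6, A549 5, CL1-5 and H1299 2 each, and CL1-0 0. The lung adenocarcinoma markers NKX2-1, NAPSA, SFTPB, SFTPC, SLC34A2 and HOPX summed to at most 1.63 FPKM in any library.

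EGFR mRNA was highest in PC9. In Mock-treated cells it stood at 67.2 FPKM in PC9 (17470 reads), 20.5 in H1792, 12.4 in CL1-5, 9.46 in A549, 3.08 in H1299 and 0.711 in CL1-0. PC9 was 3.27-fold above H1792, the next line, and no neighbours in this order had overlapping counting intervals. ERBB2 varied least, from 4.87 FPKM in H1299 to 10.7 in PC9, a range of 2.21-fold, and A549 (9.15) and CL1-0 (8.70) had overlapping intervals. ERBB3 spanned 140-fold, from 0.0767 FPKM (18 reads) in CL1-5 to 10.7 in PC9. H1792 (0.149) and CL1-5 had overlapping counting intervals, and A549 (3.74), H1299 (1.41) and CL1-0 (0.675) lay between. EGFR thus made up 75.8% of the summed FPKM of EGFR, ERBB2 and ERBB3 in PC9 and 78.5% in H1792, but 7.05% in CL1-0, where ERBB2 made up 86.3%.

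MET and AXL followed other orders. MET was at 55.7 FPKM in H1792, 49.6 in PC9, 29.7 in A549, 15.9 in CL1-5, 12.8 in H1299 and 0.975 in CL1-0. AXL was at 281 FPKM in H1299 (82782 reads), 107 in H1792, 55.0 in CL1-5, 51.7 in PC9, 32.3 in A549 and 0.304 in CL1-0 (37 reads). Within H1299, AXL exceeded EGFR 91.2-fold on the per-length FPKM scale, whereas in PC9 the ratio of AXL to EGFR was 0.769. AXL led the 5 receptors in Mock A549, CL1-5, H1792 and H1299, EGFR led in PC9 and ERBB2 in CL1-0.

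**Figure D1:**
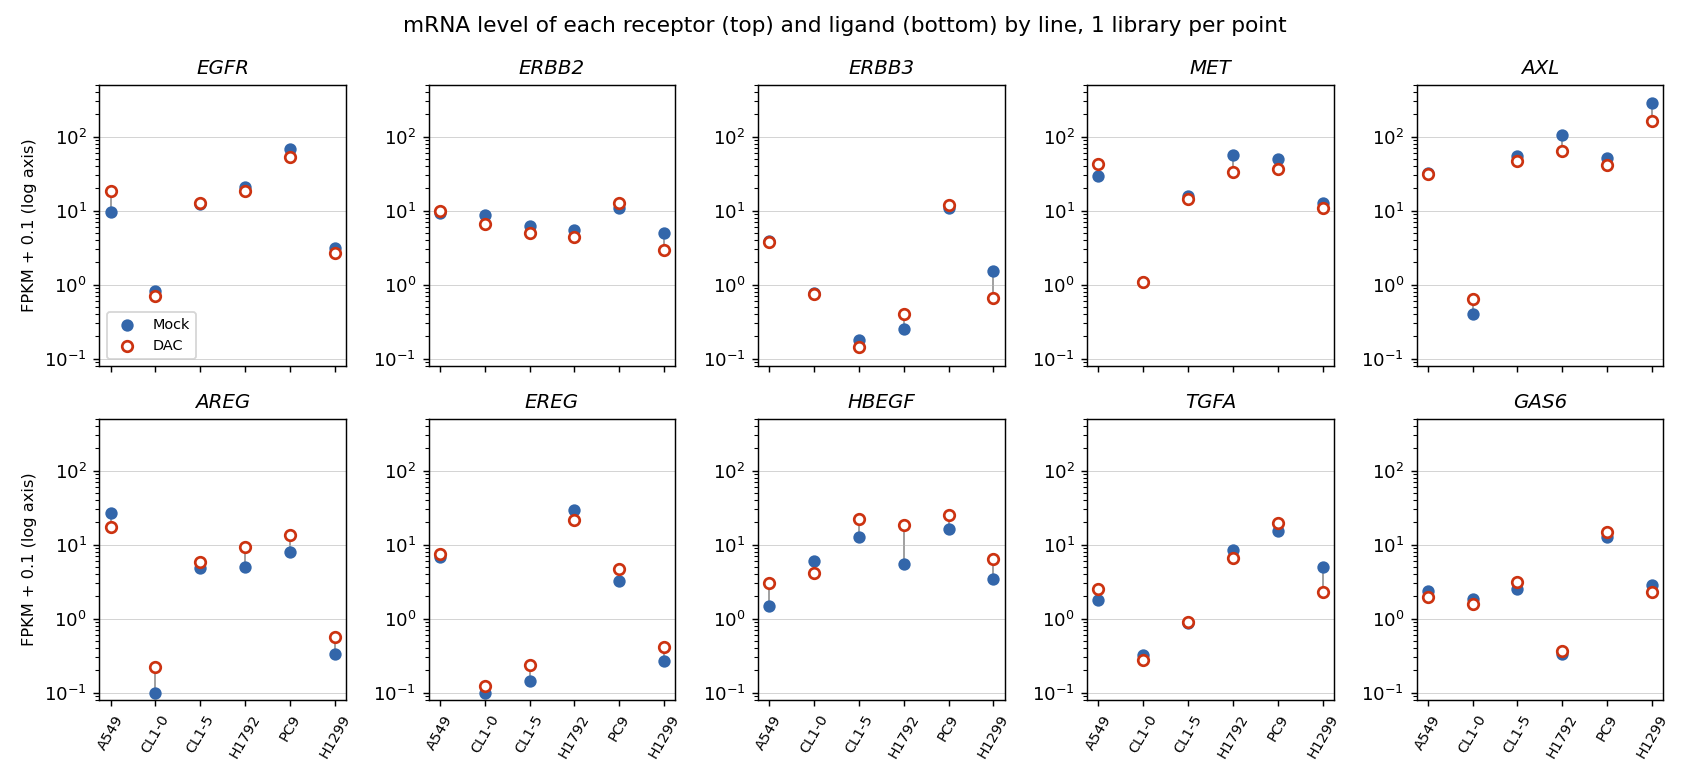
Each panel plots 1 gene, with the line on the x axis and FPKM + 0.1 on a log y axis; filled points are Mock and open points DAC libraries, 1 library per point. EGFR peaks in PC9 (67.2 FPKM in Mock) and AXL in H1299 (281), and CL1-0 is lowest for EGFR, MET, AXL, AREG, EREG and TGFA.

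The EGFR ligands differed between lines in which gene led. In Mock-treated cells AREG was highest in A549 (26.3 FPKM), ahead of PC9 (7.94), H1792 (4.82), CL1-5 (4.72) and H1299 (0.233), with 0 reads in CL1-0. EREG was highest in H1792 (29.5 FPKM), followed by A549 (6.70), PC9 (3.17), H1299 (0.171) and CL1-5 (0.0452, 7 reads), with 0 reads in CL1-0. HBEGF ranged from 1.38 FPKM in A549 to 16.0 in PC9, with CL1-5 (12.7) next and a median of 5.60. TGFA ranged from 0.222 FPKM in CL1-0 to 15.1 in PC9, with H1792 at 8.41. AREG thus made up 73.0% of the 4 summed EGFR ligands in A549, EREG 61.3% in H1792, HBEGF 96.3% in CL1-0 and 69.6% in CL1-5, and TGFA 56.5% in H1299, while in PC9 HBEGF (37.9%) and TGFA (35.8%) came close together. AREG has a near-identical copy in GRCh37, AREGB, and its values are uncertain to the extent that reads were split between the copies; AREGB was listed at 0.175 FPKM or less in every library.

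GAS6, the AXL ligand, was at 12.6 FPKM in Mock PC9, 4.56-fold above H1299 (2.77), and lowest in H1792 (0.235, 35 reads). H1299 and CL1-5 (2.43), and CL1-5 and A549 (2.25), had overlapping counting intervals. The 2 lines with the most AXL therefore had little or moderate GAS6, with an AXL to GAS6 ratio of 453 in H1792 and 101 in H1299 against 4.09 in PC9. The lncRNA gene GAS6-AS1 overlaps GAS6, as EGFR-AS1 overlaps EGFR, and whether the reads were counted by strand is not given in the sources used here.

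**Figure D2:**
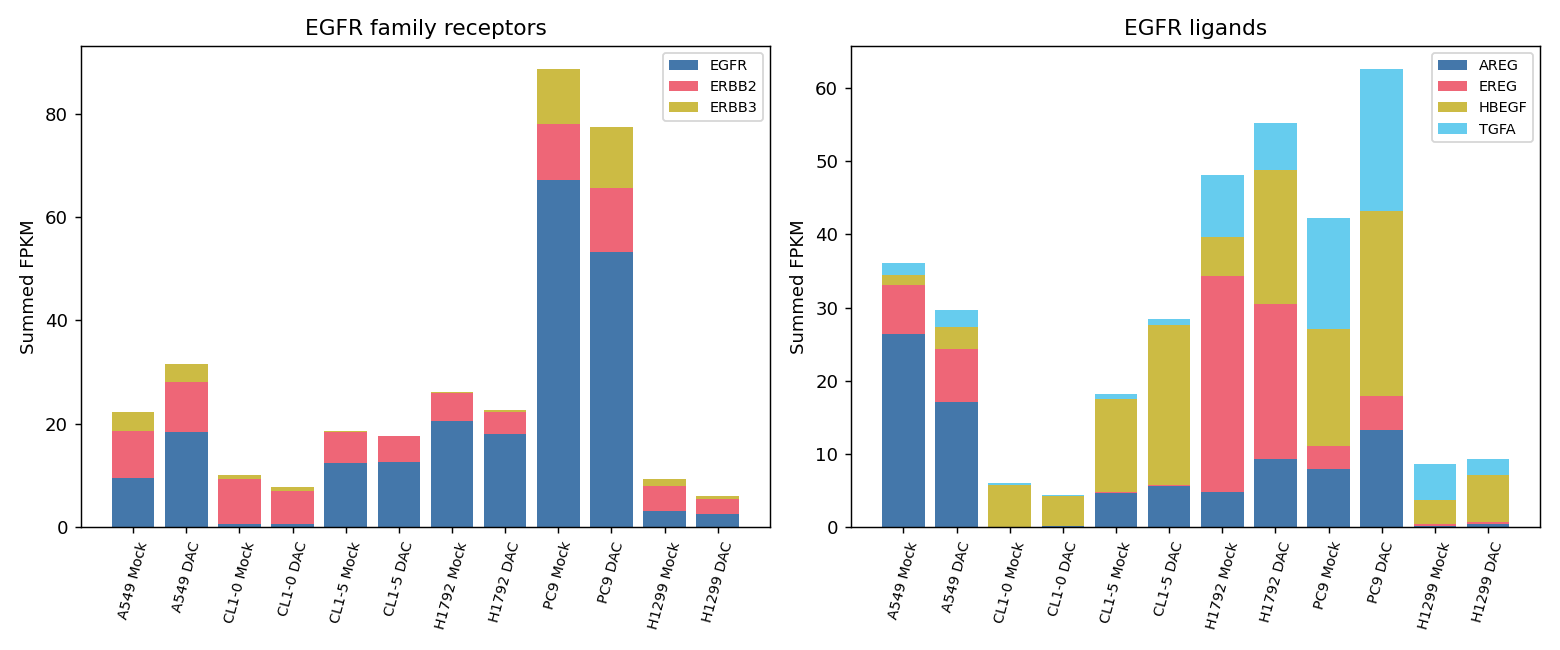
Stacked bars give the summed FPKM of EGFR, ERBB2 and ERBB3 (left) and of AREG, EREG, HBEGF and TGFA (right) in each of the 12 libraries. The receptor sum is highest in PC9, mostly EGFR (75.8% in Mock), and the leading ligand is AREG in A549, EREG in H1792 and HBEGF in CL1-0 and CL1-5.

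Over the 6 Mock libraries, AREG followed EGFR with Pearson's r = 0.81 (Spearman's rho = 0.66) on log2(FPKM + 0.1), but r = 0.58 without CL1-0. TGFA gave r = 0.76 (0.49 without CL1-0), EREG 0.65 (0.46) and HBEGF 0.40 (0.64). GAS6 and AXL gave r = 0.00 (rho = 0.20, and r = -0.25 without CL1-0), and ERBB3 and AXL r = 0.03 (rho = -0.26, and r = -0.25). These are descriptions of 6 lines. Over all 12 libraries, the genes whose log2 level was most like that of EGFR among 13363 genes were LAMA3, a laminin chain (r = 0.98), CAPN2 (0.97) and TRIB1 (0.97). Those for ERBB2 were SLC9A2 (0.95), MEGF6 (0.91) and RBM41 (0.91), for MET MGST1 (0.99), ME1 (0.98) and C1GALT1C1L (0.97), and for AXL ZNF619 (0.98), INPP1 (0.97) and PARVA (0.97). Mock and DAC libraries of a line share most of their pattern, so that these 12 points are not independent.

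PC9 had the highest Mock level of 6 of the 10 members: EGFR, ERBB2, ERBB3, HBEGF, TGFA and GAS6. Against the mean of the other 5 lines, its log2(FPKM + 0.1) level was higher by 3.90 for ERBB3 (SE 1.75), by 3.55 for EGFR (SE 1.66), by 3.04 for TGFA (SE 1.73) and by 3.0 for GAS6 (SE 1.24). None of the 10 passed the test across 21744 genes in limma, where 1.16% of genes (252, 221 of them higher in PC9) did; when only genes averaging 1 FPKM or more were kept, 0 were called higher in PC9 and 7 lower. For the members, adjusted p-values were between 0.758 (GAS6, unadjusted p = 0.050) and 0.969 (AXL). The spread of the other lines is wide, and the test assumes that PC9, with 1 library, varies like them. AXL was 0.82 above the mean of the others but 0.72 below it when CL1-0 was left out. The order of the lines was not recomputed on a common sum of FPKM. HBEGF in PC9 was 1.26-fold above CL1-5, and the Mock FPKM sums were 380930 in PC9 and 303684 in CL1-5. That lead may thus not hold on a common sum.

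CL1-5 and CL1-0 differed widely in these genes. In Mock-treated cells, 6 of the 10 members were at least 2-fold higher in CL1-5 (19.5% of 20735 genes were) and 1 was at least 2-fold lower (14.6% were). AXL was 181-fold higher, EGFR 17.4-fold, MET 16.3-fold, TGFA 3.52-fold and HBEGF 2.18-fold, and AREG, with 0 reads in CL1-0, was at least 61.3-fold higher (against a floor of 3 reads in that library). ERBB3 went the other way, 8.80-fold higher in CL1-0 (0.675 against 0.0767 FPKM), and ERBB2 was 1.43-fold higher in CL1-0. Of the 10 epithelial markers, 0 reached 1 FPKM in Mock CL1-0 and 2 did in CL1-5 (KRT8 at 75.9 and KRT18 at 65.7), and the other 8 were below 1 FPKM in both. The part of these markers in the difference was not tested, and with 1 library each there is no test of the difference.

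After DAC, none of the 10 members passed the test over the 5 lines of the study's mRNA-seq comparison, which leaves out H1792. limma, with the line as a block, called 0.119% of 22603 genes (27, each of them higher with DAC) at an adjusted p below 0.05, and 1825 genes were higher and 994 lower at an unadjusted p under 0.05. The median log2 change on the log2(FPKM + 0.1) scale was -0.06 for the 10 members and 0.07 for all genes tested.

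HBEGF, a heparin-binding EGFR ligand, had the largest mean change of the 10 with a pseudocount of 0.1; with 0.01 (1.01 for AREG, 0.93 for EREG and 0.59 for HBEGF) or without A549 (0.72, 0.54 and 0.46) it came after AREG and EREG. It went from 1.38 to 2.97 FPKM in A549, 5.84 to 4.08 in CL1-0, 12.7 to 21.8 in CL1-5, 5.36 to 18.3 in H1792, 16.0 to 25.3 in PC9 and 3.38 to 6.36 in H1299. It was thus higher after DAC in 5 of 6 lines and lower in CL1-0. Its log2 change over the 5 lines was 0.58 (SE 0.23, unadjusted p = 0.0375, adjusted p = 0.375 in limma). H1792, which is not among the 5 lines, had the highest fold, 3.42 (95% interval 3.06 to 3.84), and A549 had 2.16 (1.68 to 2.79).

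The EREG level was above Mock in DAC libraries of 5 of 5 lines (log2 change 0.45, SE 0.18, unadjusted p = 0.0415, adjusted p = 0.383 in limma). Most of its lines were low: it went from 0 to 4 reads in CL1-0, 7 to 19 in CL1-5 and 56 to 94 in H1299. Where it was more abundant, it went from 6.70 to 7.28 FPKM in A549 (1.09-fold, interval 0.991 to 1.19), 3.17 to 4.63 in PC9 (1.46-fold, 1.28 to 1.66) and 29.5 to 21.2 in H1792 (0.719-fold, 0.685 to 0.754). With a pseudocount of 1 the EREG value was 0.17, and it was 0.93 with 0.01. AREG had a log2 change of 0.46 (SE 0.25, adjusted p = 0.481), which was 0.14 with a pseudocount of 1, 1.01 with 0.01, 0.23 in limma-voom and 0.28 without CL1-0. AREG was higher after DAC in PC9 (7.94 to 13.3 FPKM), H1792 (4.82 to 9.30), CL1-5, H1299 and CL1-0 (0 to 6 reads), and lower in A549 (26.3 to 17.1). TGFA went from 4.93 to 2.19 FPKM in H1299 (0.445-fold, 0.387 to 0.512) and from 15.1 to 19.4 in PC9, and its log2 change over the 5 lines was -0.10 (SE 0.25, adjusted p = 0.884). GAS6 changed by at most 1.27-fold in any line, in either direction, with a log2 change of -0.06 (SE 0.15, adjusted p = 0.888).

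**Figure D3:**
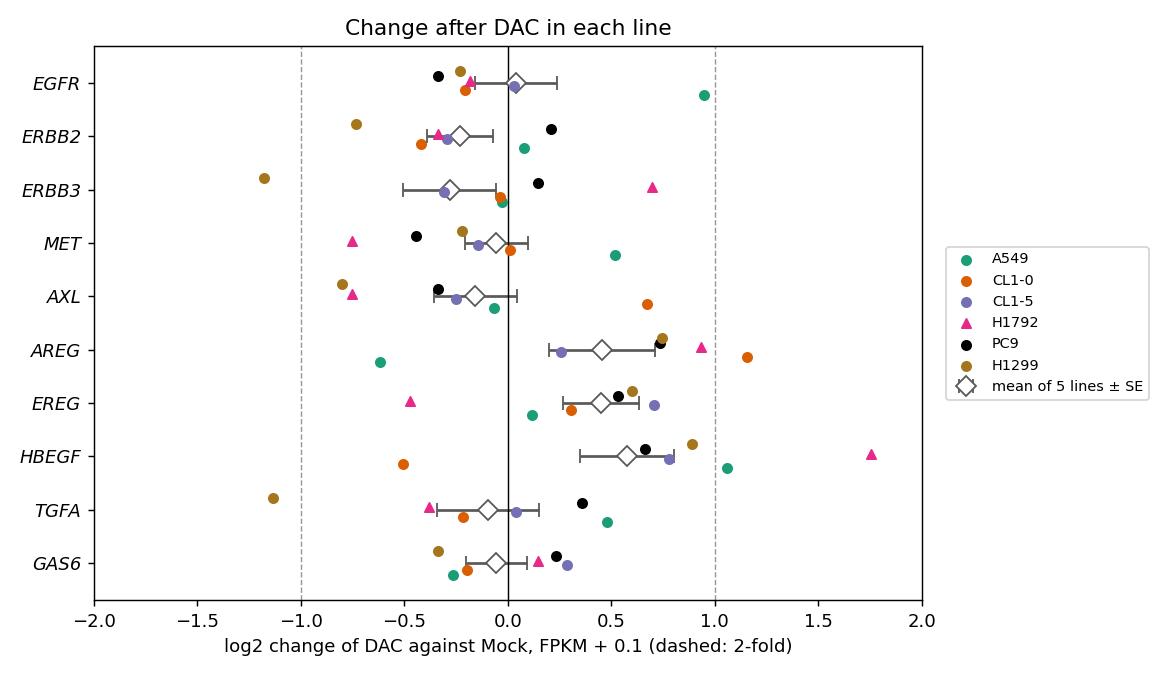
The x axis is the log2 change of DAC against Mock on the FPKM + 0.1 scale and each row is a gene; coloured points are the 6 lines, diamonds with bars the mean of 5 lines ± SE (without H1792, the triangle), and dashed lines mark 2-fold. HBEGF lies right of 0 in 5 of 6 lines and AXL left of 0 in 5 of 6, and no gene passed the adjusted threshold.

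Among the receptors, EGFR had its highest change in A549, away from the other 5 lines. It went from 9.46 to 18.4 FPKM in A549 (1.94-fold, interval 1.85 to 2.03), and in the other lines from 12.4 to 12.6 (CL1-5), 67.2 to 53.2 (PC9), 20.5 to 18.1 (H1792), 3.08 to 2.61 (H1299) and 0.711 to 0.602 (CL1-0). The change in A549 lay at the 80.9th percentile of the changes in that line, where 18.1% of genes were at least 2-fold higher. Its log2 change over the 5 lines was 0.04 (SE 0.20, adjusted p = 0.946) and -0.19 without A549.

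AXL was lower after DAC in 5 of 6 lines. It went from 281 to 161 FPKM in H1299 (0.573-fold, 0.564 to 0.583), 107 to 63.2 in H1792 (0.593-fold, 0.577 to 0.610), 51.7 to 40.8 in PC9, 55.0 to 46.2 in CL1-5 and 32.3 to 30.9 in A549, and from 37 to 83 reads in CL1-0. Its log2 change over the 5 lines was -0.16 (SE 0.20, adjusted p = 0.745), and 0.00 without H1299. In A549 the AXL fold was 0.956 (interval 0.913 to 0.9999). With FPKM rescaled to a common sum (TPM) it was 1.22, so the direction in A549 depends on the scaling.

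MET went from 29.7 to 42.5 FPKM in A549, from 55.7 to 33.0 in H1792 and from 49.6 to 36.4 in PC9, with a log2 change over 5 lines of -0.06 (SE 0.15, adjusted p = 0.890). ERBB2 had a log2 change of -0.23 (SE 0.16, adjusted p = 0.555) and its lowest fold was 0.592 in H1299. ERBB3 had -0.28 (SE 0.22, adjusted p = 0.599). It went from 1.41 to 0.566 FPKM in H1299 (0.402-fold, 0.327 to 0.494), from 32 to 63 reads in H1792, and from 10.7 to 11.9 FPKM in PC9.

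Counted per line on the FPKM + 0.1 scale, few members moved 2-fold. At least 2-fold higher were HBEGF in A549 (18.1% of its genes were), AREG in CL1-0 (9.32%) and HBEGF in H1792 (12.9%), and none in CL1-5 (8.35%), PC9 (12.3%) or H1299 (12.9%). At least 2-fold lower were ERBB3 and TGFA in H1299 (4.71%), and none in A549 (7.37%), CL1-0 (2.79%), CL1-5 (6.45%), H1792 (7.46%) or PC9 (3.99%). AREG in CL1-0, with 0 and 6 reads, was below the mean of 0.1 FPKM that the genes behind these shares had to reach. As plain FPKM ratios, which the folds given for single genes are, EREG in CL1-5 (7 to 19 reads, 3.03-fold, interval 1.22 to 8.53) and ERBB3 in H1792 (32 to 63 reads, 2.04-fold, 1.31 to 3.22) also exceeded 2-fold. Of the 10 members, 7 were above 0 in PC9, 6 in A549, 6 in CL1-5, 4 in CL1-0, 4 in H1792 and 3 in H1299, where between 50.0% and 56.4% of all genes of a line were. The median log2 change of the members was 0.22 in PC9 and -0.28 in H1299, against 0.04 and 0.09 over all genes of these lines. The summed FPKM of the 4 EGFR ligands went from 42.2 to 62.6 in PC9, from 18.3 to 28.4 in CL1-5, from 48.1 to 55.3 in H1792, from 8.72 to 9.32 in H1299, from 36.1 to 29.7 in A549 and from 6.06 to 4.41 in CL1-0. The FPKM of all genes in A549 summed to 416327 in Mock and 326951 after DAC. The lower ligand sum in A549 may thus not hold on a common sum.

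The change in PC9 was compared with the mean change of the other 5 lines. For EGFR the log2 change was -0.34 in PC9 and 0.07 over the others, a difference of -0.41 (SE 0.49). The differences of the 10 members ran from -0.41 (EGFR) to 0.60 (TGFA, SE 0.58), and none passed the test, nor did any of 22814 genes (0%; 864 at an unadjusted p under 0.05, and 13 called with a pseudocount of 1). All adjusted p-values were 1.00 in limma. The SE of the 10 differences was 0.35 to 0.73, and a p above the threshold does not show that PC9 changed like the other lines.

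Other genes of these pathways were taken from 6 lists, and 0 of the genes in each passed the adjusted threshold in either direction. Of the other receptors, 3 of 4 were above 0 (median 0.21); MST1R, the receptor of macrophage-stimulating protein, had 1.34 (SE 0.36, adjusted p = 0.270) and ERBB4 -0.13 (SE 0.22). Of 9 other ligands tested, HGF, the ligand of MET, had the largest log2 change (0.45, SE 0.27, adjusted p = 0.507), and NRG2, a neuregulin, the smallest (-0.16). Of 8 genes of ligand processing, 7 were above 0. SPINT1, an inhibitor of proteases that activate hepatocyte growth factor, had 1.78 (SE 0.45, adjusted p = 0.238) and was higher in 5 of 5 lines. It started near the floor in A549 (0.119 to 1.17 FPKM), CL1-0 (0 to 0.0095), CL1-5 (0 to 0.546) and H1299 (0.0691 to 1.12). In PC9 it went from 31.4 to 50.8. The log2 changes of MST1R and SPINT1 thus depend on the pseudocount of 0.1. RHBDF2 had -0.08. Among 13 adaptors the values ran from -0.17 (SHC1) to 0.37 (GAB1).

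Of 13 feedback inhibitors, 7 were above 0 and 6 below. SPRY2, which dampens receptor tyrosine kinase signalling, had the smallest log2 change (-0.92, SE 0.16, adjusted p = 0.138) and was lower in 5 of 5 lines, going from 27.5 to 11.4 FPKM in H1299 and from 4.93 to 2.02 in A549. LRIG1 had the largest (0.42, SE 0.22, adjusted p = 0.456). Of 10 genes that MAPK signalling is known to induce, 8 were below 0 (median -0.18), from EMP1 at -0.57 (SE 0.18, adjusted p = 0.309) to EPHA4 at 0.40 (SE 0.33, adjusted p = 0.613). The median of all genes tested was 0.07, and the share of them on either side of 0 was not counted. The 10 epithelial markers, for comparison, were above 0 in 9 cases (median 0.79) with 0 called. CLDN7, a claudin, had 2.33 (SE 0.45, adjusted p = 0.170) and ESRP1 -0.11 (SE 0.25). In Mock, CLDN7 was below 1 FPKM in each of the 5 lines except PC9. KRT8, an abundant marker, was higher after DAC in 2 of the 5 lines. It went from 1578 to 1021 FPKM in A549, from 801 to 500 in PC9 and from 37.8 to 367 in H1299. The 7 mesenchymal genes had a median of 0.00. Fibroblast markers summed to between 0.279 and 102 FPKM in Mock and between 1.79 and 155 after DAC, highest in H1792, leukocyte markers to at most 8.52, and endothelial markers to at most 2.52.

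The ATAC libraries labelled CL1-5 and PC9 went against their labels. The peak names in the libraries labelled CL1-5 carry PC9, and those in the libraries labelled PC9 carry CL1-5. The genes compared in this paragraph all had a promoter peak in at least 1 ATAC library. Of 364 genes with Mock mRNA at 5 FPKM or more and at least 10-fold higher in PC9 than in CL1-5, 95 had a promoter peak only in the Mock library labelled CL1-5 and 4 only in that labelled PC9. Of 180 genes higher in CL1-5 than in PC9 by the same limits, 44 had a promoter peak only in the library labelled PC9 and 5 only in that labelled CL1-5. For A549 against H1299, genes with a peak in only 1 of the libraries mostly followed the labels: 109 against 3 of 357 genes higher in A549, and 41 against 26 of 247 higher in H1299. A peak in both libraries was more frequent, with 220 of the 357 and 131 of the 247 genes, and with 257 of the 364 and 124 of the 180 for PC9 and CL1-5. Libraries are named by their labels below.

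A promoter peak was counted where a deposited peak listed for the gene lay within 3000 bp of a transcript start of the gene, which may lie inside it. In these lists EGFR, ERBB2, ERBB3, MET, AXL, HBEGF, TGFA and GAS6 had one in all 8 libraries, CL1-0 and H1792 having no ATAC library. Per library, 8 to 10 of the 10 members had a promoter peak, and 71.7% to 83.0% of 19052 genes did. These 19052 are the genes with a promoter peak in any of the 8 libraries, not all genes. All 10 members are among them. Fold enrichments are ratios over the peak caller's background and depend on each library's own depth, which is not known here, so they were not tested.

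EREG differed between libraries. It had a promoter peak in A549 (fold enrichment 5.93 in Mock and 5.21 after DAC) and in both labelled CL1-5 (5.80 and 5.30), and no promoter peak in H1299 or in those labelled PC9. Those labelled PC9 had 1 peak each inside the gene, with enrichments of 3.84 and 4.45. In Mock A549 the peak was at chr4:75230514-75231174 and covered the window printed above. By mRNA, EREG was at 6.70 FPKM in Mock A549 and 3.17 in PC9, and at 0.171 in H1299 and 0.0452 in CL1-5. Thus the libraries with the promoter peak would be those of the lines with EREG mRNA if the CL1-5 and PC9 libraries were exchanged, and would not be as labelled.

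AREG had a promoter peak in both H1299 libraries (6.82 and 6.51), in A549 after DAC only (5.51), in the library labelled PC9 after DAC only (4.46) and in the library labelled CL1-5 in Mock only (4.0). AREG mRNA was lower after DAC in A549 (26.3 to 17.1 FPKM) and low in H1299 (0.233 and 0.459). Its upstream window matched GRCh37 at 2 places, before AREG and before AREGB, so a missing peak there says little.

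The highest promoter enrichments belonged to MET and ERBB2, whatever gene a peak was listed for. MET had 10.9 in A549, 9.09 in H1299, 9.56 in the library labelled CL1-5 and 8.64 in that labelled PC9 in Mock, and 11.2, 7.68, 7.31 and 8.52 after DAC. ERBB2 had 10.0, 8.98, 7.28 and 8.91 in Mock. Its promoter is shared with PGAP3, for which the peak over the ERBB2 start was listed in 4 of the 8 libraries. AXL, the most abundant receptor mRNA in H1299, had its lowest promoter enrichment there. Over the AXL window printed above it was 2.98 in Mock and 2.63 after DAC in H1299, against 4.10 to 5.19 in the other Mock libraries. Before another RefSeq start of AXL (chr19:41732410-41732659) it was 3.52 and 2.79 in H1299, against 4.07 to 5.49 in the other Mock libraries. HBEGF had 7.53 in A549 and 5.82 in H1299 in Mock and 6.39 and 4.60 after DAC, while its mRNA was higher after DAC in both lines.

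Inside the EGFR gene (chr7:55086710-55279321, plus strand, GRCh37) the number of peaks was highest in the libraries labelled CL1-5, which had 23 in Mock and 28 after DAC covering 16254 and 23653 bp. Those labelled PC9 had 14 and 21 (8004 and 15795 bp), A549 had 9 and 14 (6186 and 9745 bp) and H1299 9 and 15 (6221 and 10198 bp). The number was higher after DAC in each of the 4 pairs, and so was the number of peaks in the whole library: 58734 to 78199 in A549, 45354 to 63541 in H1299, 85710 to 97584 in those labelled CL1-5 and 71204 to 91061 in those labelled PC9. The part of the total peak number in the EGFR counts was not tested. EGFR mRNA was higher after DAC by more than its counting error only in A549. The other members lie at chr17:37844167-37886679 (ERBB2), chr12:56470583-56497289 (ERBB3), chr7:116312250-116438431 (MET), chr19:41725128-41767671 (AXL), chr4:75310853-75320722 (AREG), chr4:75230862-75254466 (EREG), chr5:139712428-139726188 (HBEGF), chr2:70674416-70781325 (TGFA) and chr13:114523522-114567049 (GAS6).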

How the data were processed

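mRNA-seq (12 libraries, 6 lines) and Omni-ATAC-seq (8 libraries, 4 lines) were grouped by the line and treatment of their labels. For mRNA-seq, the authors aligned reads to hg19 with RSEM and bowtie2 (the submitters' processing notes also name TopHat2 2.1.1), counted them per gene on GENCODE release 25, and deposited FPKM values made with DESeq2 1.24.0, and a mean normalized signal per gene. From these the reads behind each value were recovered. Of the values checked, which left out the highest read numbers, 100% were whole within 0.1 of a read. The table also holds the authors' own fold changes and p-values, which were not used. For Omni-ATAC-seq, the authors aligned with BWA 0.7.17-r1188, marked duplicates with Picard 2.21.4, removed them with SAMtools 1.9 and called broad peaks per library with MACS2 2.2.5; the deposited lists give each peak's fold enrichment (a ratio over background), its −log10 q-value and the gene that ChIPseeker 1.20.0 listed. No column of values lacked a sample (0).

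log2(FPKM + 0.1), for genes whose FPKM averaged 0.1 or more, was fitted with limma 3.58.1 (R 4.3.3), with a trend, the cell line as a block and Benjamini-Hochberg adjustment at 0.05. Mock and DAC cells of a line share that line: after subtraction of the treatment mean, they correlated at 0.700 to 0.902, and libraries of different lines at 0.161 or less. The differences of PC9 from the other 5 lines, in change and in Mock level, were fitted likewise. P-values measure the spread between lines, since no source says that a line's libraries came from separate cultures. The scripts were tested on simulated data, where the fit of the PC9 change, 1 line against 5, called more unchanged genes than its threshold allows. Exact intervals and figures used Python 3.11.15, SciPy 1.17.1 and matplotlib 3.10.9. Gene positions come from GENCODE v44 lifted to GRCh37; peak ends lay within the chromosome lengths of that build, and 1380 of 591387 peaks lay on sequences the reference did not hold.

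The named genes are the 10 members and, per pathway list, the tested genes with the largest and smallest change; the 3 most alike genes are given per receptor, except for ERBB3, for which they are not reported here. The members and lists were chosen with earlier results of these data known.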

Additional observations from a re-analysis of the deposited data

Results flagged for a closer look

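Values were flagged where the highest or lowest of a group of samples lay far from the rest, measured as its gap to the nearest other sample divided by the whole range; 46 sets of values were examined and 5 were flagged, where chance flags about 1 in 20. The change of EGFR in A549 after DAC (log2 change 0.95, the others between -0.34 and 0.03) had a gap of 0.716 of the range. CL1-0 was the lowest line for MET, at 0.975 FPKM in Mock (0.628 of the range on the log2 scale) and 0.984 after DAC (0.632). CL1-0 was also the lowest for AXL, at 0.304 FPKM in Mock (0.670) and 0.544 after DAC (0.701). CL1-0 also lacked all 10 epithelial markers at 1 FPKM in Mock.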

How the results depend on the processing

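In the DAC fit over 5 lines, 27 genes passed the threshold as reported and 0 members did. The number of genes was 10 with no replicate block, 53 with H1792 included, 0 with a pseudocount of 1, 2 with no filter on FPKM, 6 with no trend and 179 in limma-voom on the recovered reads (178 higher), and between 0 (without A549 or CL1-5) and 23 with each line left out in turn (5 without CL1-0 and 12 without PC9); TPM rescaling gave 30 and moved the median log2 change of all genes from 0.07 to 0.17. For PC9 against the other lines in Mock level, 252 became 478 with a pseudocount of 1, 7 at a mean FPKM of at least 1 (0 higher and 7 lower, against 221 and 31), and 0 (without A549, CL1-0 or CL1-5) to 251 with each line left out (165 without H1299); in change, 0 became 13 with a pseudocount of 1. The causes were not tested.

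The direction of some members, none of them past the threshold, turned. Over 5 lines, leaving out each line in turn gave log2 changes of -0.19 (without A549) to 0.13 for EGFR, -0.20 to 0.041 (without PC9) for MET, -0.36 to 0.0040 (without H1299) for AXL, -0.24 to 0.16 (without H1299) for TGFA and -0.14 to 0.015 (without H1299) for GAS6; TPM rescaling gave 0.064 for MET, 0.013 for TGFA and 0.063 for GAS6. For PC9 against the others in change, leaving out lines gave -0.24 to 0.13 (without CL1-0) for AXL, -0.041 (without A549) to 0.40 for AREG and -0.46 to 0.11 (without H1792) for HBEGF; AXL was 0.018 with TPM rescaling and 0.11 with quantile normalization, and HBEGF 0.013 with quantile normalization. In level, AXL ran from -0.72 (without CL1-0) to 1.64.

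Of the counts per line, HBEGF in A549, AREG in CL1-0, and ERBB3 and TGFA in H1299 were no longer past 2-fold with a pseudocount of 1, giving 0 each; 0 passed 4-fold in any line. With TPM rescaling and the pseudocount kept at 0.1, there were 2 in A549 (EGFR at 2.46-fold and HBEGF) and 1 in CL1-5 (EREG). EREG had 7 to 19 reads there, and a pseudocount of 0.1 weighs less on the TPM scale. The rescaling itself shifts log2 changes in CL1-5 by -0.115. TPM rescaling turned ERBB3, AXL and GAS6 in A549 (0.32, 0.28 and 0.068) and ERBB3 in CL1-0 (0.13) above 0. It turned EGFR (-0.087) and TGFA (-0.068) in CL1-5 below 0. The number of members with a promoter peak kept within 1.5 times under the 1000 bp window, the stricter q-value and any peak near a transcript start. Each library had 8 to 10 members with a peak, so exchanging the CL1-5 and PC9 labels could not move the number past that limit and tests nothing. The exchange does alter which line the EREG and AREG peaks belong to. Low reads limit AREG in CL1-0 and H1299, and EREG in CL1-0, CL1-5 and H1299.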
